A study of Homo sapiens with 4 samples.

Results

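Epithelial cells hold on to each other through adherens junctions and tight junctions, and human embryonic stem cells grow as a compact epithelium of this kind. The data described here are the RNA levels of 10 genes of that surface in H9, a long-used line of human embryonic stem cells. The genes were chosen by symbol from the 60671 genes of the table, and each symbol matched 1 row. Of the 10, 8 are epithelial or surface genes (CDH1, EPCAM, CLDN6, CLDN7, TJP1, PODXL, CD24 and THY1), and 2 are mesenchymal (CDH2 and VIM). All 10 reached a mean of 1 TPM over the libraries, the minimum for a test.

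RNA with a poly(A) tail was sequenced in 4 libraries, 2 per group. The control libraries were from H9 cells with the genotype control. The KO+OE libraries were from H9 cells that carried a CFIm25 gene edited with CRISPR and overexpressed 3Flag-CFIm25. CFIm25, encoded by NUDT21, is a subunit of the cleavage factor that helps choose where an mRNA is cut and polyadenylated. All cells were grown in mTeSR medium with no treatment. According to the results section of the study, the re-expressing cells came from 1 of its edited clones by way of a lentivirus, so the group stands for 1 clone. The methods of the study name a vector in which the EF1 promoter drives the tagged cDNA. The labels name the edit both as KO and as KD, call the control cells only control, and do not state whether the replicates of a group were separate cultures. The study's text on the RNA-seq data refers to mock controls, its name for H9 cells that received the empty CRISPR vector. If the replicates were not separate cultures, the p-values below measure technical spread. Edited cells without re-expression were not analysed here, so the comparison asks how close the re-expressing line stood to control cells.

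The values are read as TPM, since they hold decimals and the columns share nearly 1 total, but no unit is named with them. In this unit the reads of a gene are divided by its length and each library is scaled to a common total. Comparisons of level between genes below rest on that reading. The columns summed to between 986853 and 987078. TPM keeps no read counts, so the depth is unknown and precision rests on the spread between replicates. NUDT21 stood at 160.67 and 152.2 TPM in control and, in KO+OE, at 162.09 and 156.6 TPM. RNA of the edited gene and of the tagged cDNA cannot be told apart in this value, so it does not check the labels. The cells carried the RNA of pluripotent cells, with POU5F1 between 2163.82 and 2212.38 TPM and LIN28A between 517.4 and 527.87 TPM, and the largest difference among them was that of SOX2, with a log2 fold change of -0.04. All 7 pluripotency markers checked were at 1 TPM or more in every library. Of the markers of trophoblast and amnion, 7 of 9 were at no more than 0.14 TPM in any library. The others were KRT7, at 17.32 to 20.61 TPM, and TFAP2C, at 5.03 to 5.81 TPM. KRT7 was thus near the level of the pluripotency marker SOX2, which was at 18.19 to 19.36 TPM. These are bulk libraries, in which fewer cells of a type and less RNA per cell cannot be told apart.

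The adherens junction is built on cadherins, which bind the same cadherin on a neighbouring cell and reach the actin cytoskeleton through catenins. Tight junctions seal the space between cells with claudins, which scaffold proteins such as TJP1 (ZO-1) tie to the cytoskeleton. In the transition from an epithelial to a mesenchymal state, cells lose CDH1 and gain CDH2 and the intermediate filament protein VIM. Pluripotent cells combine epithelial junctions with surface glycoproteins such as podocalyxin (PODXL), CD24 and THY1, by which they are commonly recognised.

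The levels of the 10 genes spanned a wide range, and the order was nearly the same in every library. THY1 stood highest, followed by CLDN6, VIM and CD24, and each of these was above the next in 4 of 4 libraries with no overlap of their ranges. CLDN7 and PODXL came next, with means of 140 and 136 TPM, and their ranges overlapped. EPCAM and CDH1 had means of 36.5 and 34.4 TPM, and these ranges overlapped as well. CDH2 and TJP1 were lowest, with means of 3.52 and 3.45 TPM, and were each the higher of the pair in 2 libraries. The steps between these levels were large against the spread: CD24 was 2.73 to 3.01 times CLDN7, PODXL was 3.64 to 3.84 times EPCAM, and CDH1 was 8.79 to 10.8 times CDH2. THY1 ranked between 109 and 119 among the 12319 genes tested, whereas TJP1 ranked between 7911 and 9377.

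**Figure D1:**
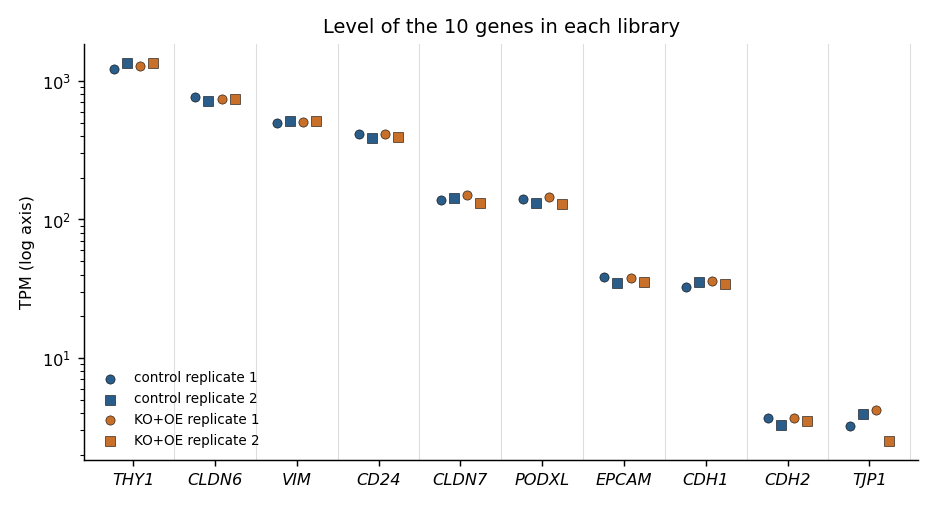
TPM on a log axis of the 10 genes, ordered by mean, with 1 point per library; blue marks control, orange KO+OE, circles replicate 1 and squares replicate 2. The points of a gene lie close together, while the genes run from 3.45 TPM (mean of TJP1) to 1304 TPM (mean of THY1), and the TJP1 points of KO+OE lie widest apart at 4.18 and 2.51 TPM.

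SNAI and ZEB proteins, which repress CDH1 and other epithelial genes, bind the E-box in the form CACCTG or CAGGTG, the same site read on opposite strands. Promoters of 6 of the 10 genes were at hand from RefSeq (GRCh38.p14), in 13 entries of 300 bases from 250 before to 50 after a start, and CDH1, EPCAM, PODXL and THY1 had none. Both forms were searched in all entries, and 20.6% of 35116 promoters held at least 1 match. Of the 13 entries 4 did. An entry of CLDN7 held 5 matches, a number reached by 0.094% of all promoters, whereas the other entry of this gene, at its outermost annotated start, held 0. Which start the cells used was not tested. Of CLDN6, TJP1 and CD24, 1 entry each held 1 match, and the further entries of TJP1 and CD24 held 0. Those of the abundant CLDN6 and VIM and of the low CDH2 are shown for comparison, with matches in capitals. They lie at chr17:7262429-7262728 (CLDN7, minus strand), chr16:3018134-3018433 (CLDN6, minus strand), chr10:17227991-17228290 (VIM, plus strand) and chr18:28177081-28177380 (CDH2, minus strand).
CLDN7: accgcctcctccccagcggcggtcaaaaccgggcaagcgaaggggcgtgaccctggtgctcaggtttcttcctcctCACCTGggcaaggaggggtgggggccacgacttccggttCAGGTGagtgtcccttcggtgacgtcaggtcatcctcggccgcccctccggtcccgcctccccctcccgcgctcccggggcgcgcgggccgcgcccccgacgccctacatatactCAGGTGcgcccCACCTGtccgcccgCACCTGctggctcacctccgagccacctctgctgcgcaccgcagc
CLDN6: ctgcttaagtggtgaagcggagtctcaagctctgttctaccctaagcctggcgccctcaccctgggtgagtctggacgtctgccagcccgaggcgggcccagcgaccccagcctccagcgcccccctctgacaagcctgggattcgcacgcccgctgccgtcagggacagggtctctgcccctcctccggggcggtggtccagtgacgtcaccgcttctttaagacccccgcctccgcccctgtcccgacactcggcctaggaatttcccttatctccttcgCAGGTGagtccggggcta
VIM: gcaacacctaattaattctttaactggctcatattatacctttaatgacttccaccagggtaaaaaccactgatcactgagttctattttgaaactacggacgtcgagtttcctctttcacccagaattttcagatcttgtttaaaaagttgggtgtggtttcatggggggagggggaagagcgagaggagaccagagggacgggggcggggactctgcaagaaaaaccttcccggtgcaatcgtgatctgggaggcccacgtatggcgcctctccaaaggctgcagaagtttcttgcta
CDH2: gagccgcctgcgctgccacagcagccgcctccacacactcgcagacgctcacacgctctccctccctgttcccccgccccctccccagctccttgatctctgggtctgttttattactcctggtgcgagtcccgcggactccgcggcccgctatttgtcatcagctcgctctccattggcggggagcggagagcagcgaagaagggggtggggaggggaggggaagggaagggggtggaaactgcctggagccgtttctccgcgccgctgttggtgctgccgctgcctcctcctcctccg

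The matches in the printed entry of CLDN7 began at -174, -135, -20, -9 and 6 relative to the start, and that of CLDN6 at 33. VIM and CDH2 had no match in this window. Number of matches and level did not run together over these entries. CLDN7, whose printed entry held the most matches, was at 131.16 TPM or more, and VIM, with none, at 496.18 TPM or more. CDH2, with none, was at 3.69 TPM or less, and TJP1, with 1 match in 1 of its entries, at 4.18 TPM or less. Other entries of CLDN7 and TJP1 held 0. As the start in use was not tested, the count belongs to an entry and not to a gene. A match of letters does not show that a factor binds there.

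CDH1 encodes E-cadherin, the cadherin of the epithelial adherens junction, and lies on chromosome 16 from 68737292 to 68835537 in GRCh38. Its level was 32.42 and 35.22 TPM in control and 35.9 and 34.1 TPM in KO+OE. The groups overlapped, and the lowest value was a control library. The mean of CDH1 was 33.8 ± 1.98 TPM over the control libraries and 35.0 ± 1.27 TPM over the KO+OE libraries (SD, n = 2 per group). The log2 fold change of KO+OE over control, here and below on the log2(TPM + 1) scale, was 0.05 (95% confidence interval -0.12 to 0.22; limma, adjusted p = 0.974).

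EPCAM is a homophilic adhesion molecule of epithelia, sits on chromosome 2 from 47369311 to 47387020, and is used to sort pluripotent cells. It measured 38.43 and 34.89 TPM for control, beside 37.56 and 35.18 TPM for KO+OE. Both KO+OE values lay between the control values. The log2 fold change was -0.01 (95% confidence interval -0.20 to 0.18), with an adjusted p = 0.990 from limma. Among 174 other genes of the lists described below, EPCAM was also the gene closest to CDH1 in level, with a mean absolute difference of 0.09 in log2(TPM + 1) over 4 libraries. EPCAM itself lay closest to MMP2, at 0.084.

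The claudins were the most abundant junction proteins of the set by RNA. CLDN6, an early embryonic claudin, lies on chromosome 16 from 3014712 to 3018183. It had 764.84 and 715.52 TPM in control cells against 745.07 and 745.43 TPM in KO+OE cells, and both KO+OE values fell between those of control. CLDN7, a claudin of many adult epithelia that also binds EPCAM, lies on chromosome 17 from 7259903 to 7263213. It stood at 139.26 and 142.07 TPM in control and, in KO+OE, at 149.05 and 131.16 TPM. Here the KO+OE libraries held both the highest and the lowest value. The log2 fold changes were 0.01 for CLDN6 (95% confidence interval -0.09 to 0.11) and -0.01 for CLDN7 (-0.18 to 0.17), with limma adjusted p-values of 0.990 and 0.991. CLDN6 was 5.0 to 5.68 times CLDN7 in TPM, and the list gene closest to CLDN7 in level was PODXL.

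TJP1 encodes the scaffold protein to which claudins attach and lies on chromosome 15 from 29699367 to 29969049. It measured 3.21 and 3.91 TPM for control, beside 4.18 and 2.51 TPM for KO+OE. As with CLDN7, the KO+OE libraries were the highest and the lowest, and their distance of 0.561 in log2(TPM + 1) compares with a median of 0.182 between these replicates over genes of 1 to 5 TPM. The log2 fold change was -0.09, the 95% confidence interval ran from -0.68 to 0.49, and limma gave an adjusted p = 0.988. A change of up to 1.41-fold upward, or down to 0.626 of the control level, both on the TPM + 1 scale, lay within that interval, the widest of the 10. The sign rested on single libraries, since the log2 fold change came to -0.37 when KO+OE replicate 1 was left out and to 0.19 when KO+OE replicate 2 was.

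PODXL encodes podocalyxin, a sialomucin of the apical membrane that carries epitopes of the TRA-1 antibodies (chromosome 7, from 131500271 to 131556628). It had 139.74 and 131.8 TPM in control cells against 144.14 and 128.88 TPM in KO+OE cells, with the extremes again in KO+OE. CD24 encodes a small glycoprotein held in the membrane by a lipid anchor (chromosome 6, from 106969831 to 106976855). It stood at 415.04 and 388.25 TPM in control and, in KO+OE, at 411.98 and 395 TPM, both inside the control range. The genome holds processed copies of CD24. Of these, CD24P1 and CD24P2 were listed at 0 in every library, and how reads that match several copies were counted is not given in the sources used here, so its level is uncertain to that extent.

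THY1 (CD90), a lipid-anchored protein of the immunoglobulin family, lies on chromosome 11 from 119415476 to 119424985. It marks human pluripotent cells but also neurons and fibroblasts. THY1 measured 1228.03 and 1352.44 TPM for control, beside 1291.4 and 1344.59 TPM for KO+OE, with both KO+OE values between those of control. The log2 fold changes were 0.01 for PODXL (95% confidence interval -0.16 to 0.18), 0.01 for CD24 (-0.11 to 0.12) and 0.03 for THY1 (-0.10 to 0.17). The limma adjusted p-values were 0.992, 0.990 and 0.980.

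The mesenchymal genes differed from each other far more than the groups did. CDH2, which encodes N-cadherin and lies on chromosome 18 from 27932879 to 28177130, had 3.69 and 3.27 TPM in control cells against 3.65 and 3.49 TPM in KO+OE cells. VIM, on chromosome 10 from 17228241 to 17237593, stood at 496.18 and 512.74 TPM in control and, in KO+OE, at 505.88 and 513.97 TPM. By mean, CDH2 was above 31.5% of the genes tested and VIM above 98.3% of them. The log2 fold changes were 0.03 for CDH2 (95% confidence interval -0.31 to 0.37) and 0.02 for VIM (-0.06 to 0.09), with limma adjusted p-values of 0.990 and 0.987. The list gene closest to VIM in level was the pluripotency gene LIN28A, at a mean absolute difference of 0.042 in log2(TPM + 1).

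The epithelial and surface genes were next set beside the mesenchymal genes within each library. The mean log2(TPM + 1) of the 8 epithelial and surface genes was 6.91 and 6.92 in control and 6.98 and 6.84 in KO+OE. That of CDH2 and VIM was 5.59 and 5.55 in control and 5.6 and 5.59 in KO+OE. The difference between these means was 1.31 and 1.37 in control and 1.38 and 1.26 in KO+OE. The KO+OE libraries were thus the highest and the lowest. The first mean includes the surface genes PODXL, CD24 and THY1, with means of 136, 403 and 1304 TPM, and THY1 also marks fibroblasts. The size of the difference is therefore not a contrast of junction genes alone with mesenchymal genes. Single pairs gave opposite orders. CDH1 exceeded CDH2 in 4 of 4 libraries, by a TPM ratio of 8.79 and 10.8 in control and of 9.84 and 9.77 in KO+OE. Against VIM, however, CDH1 had a ratio of 0.0653 and 0.0687 in control and of 0.071 and 0.0663 in KO+OE. EPCAM was likewise 10.1 to 10.7 times CDH2 and 0.068 to 0.0775 of VIM. CLDN6 and THY1 were the genes of the set above VIM, by 1.4 to 1.54 times and 2.47 to 2.64 times.

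Between the groups, 0 of the 10 genes passed an adjusted p of 0.05 in limma, and 0 had an unadjusted p under 0.05. Over all genes tested the shares were 0.00812% and 5.33%. In 0 of the 10 did the KO+OE values lie wholly above or below those of control, while over all genes tested this was so for 34.1%. The mean was higher in KO+OE for 7 of the 10 genes and lower for 3, and the median log2 fold change was 0.009, against -0.012 over all genes tested. On the TPM + 1 scale, the 95% confidence interval lay within 1.3-fold in either direction for 9 of the 10 genes, TJP1 being the exception. CDH2, with an interval from 0.809 to 1.288, was close to that limit. The scale understates changes of low genes such as CDH2, so the limit is not a bound on its change in TPM. Each of the 10 log2 fold changes took the other sign in at least 1 of the fits that lacked a library.

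**Figure D2:**
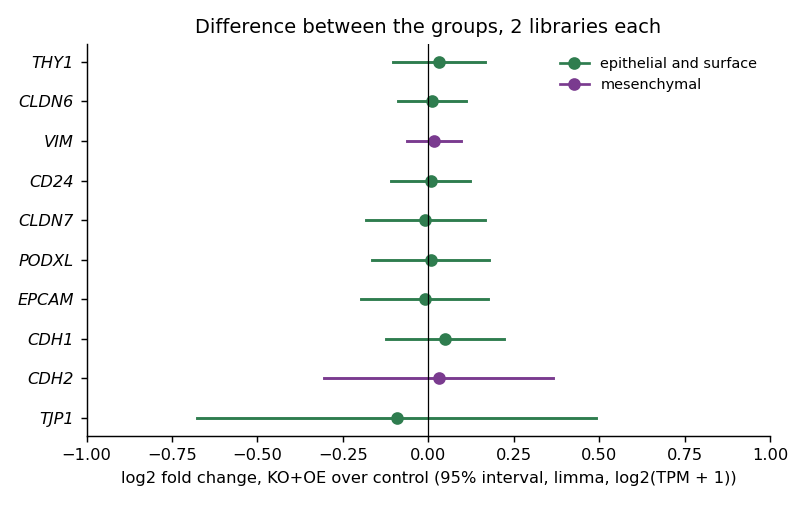
Log2 fold change of KO+OE over control on the log2(TPM + 1) scale (points) with the 95% confidence interval from limma (lines) for the 10 genes, 2 libraries per group; green marks epithelial and surface genes, purple CDH2 and VIM. Every interval spans 0, and that of TJP1 is the widest, from -0.68 to 0.49.

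The families of the junction genes were then examined. Of 23 claudins, 11 were tested and 8 were listed at 0 in all 4 libraries. CLDN6 alone made up 70.5% to 72.0% of the summed claudin TPM of a library, and CLDN7 made up 12.7% to 14.2%. CLDN3 was between 63.07 and 69.3 TPM, CLDN4 between 56.19 and 60.1 TPM, CLDN10 between 13.78 and 16.55 TPM and CLDN19 between 6.18 and 6.96 TPM. CLDN15, CLDN5, CLDN23, CLDN9 and CLDN11 lay under 3 TPM. The claudins were therefore dominated by a single member, in control and KO+OE alike. None of the 11 had an unadjusted p under 0.05, and the largest difference was that of CLDN11, with a log2 fold change of -0.25 (95% confidence interval -0.84 to 0.34). It was -0.45 with KO+OE replicate 1 left out and -0.043 with KO+OE replicate 2 left out.

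Of 23 cadherins, 9 were tested. CDH3, which encodes P-cadherin, measured 102.51 and 98.33 TPM for control, beside 104.05 and 109.26 TPM for KO+OE. It exceeded CDH1 in 4 of 4 libraries and made up 61.1% to 65.0% of the summed cadherin TPM, where CDH1 made up 19.9% to 21.9% and CDH2 2.0% to 2.3%. By RNA, P-cadherin was thus the leading one of the 23 cadherins listed. Both KO+OE values of CDH3 were above those of control, with a log2 fold change of 0.09 (95% confidence interval -0.03 to 0.21) and an adjusted p = 0.937 from limma, and it was 0.051 with KO+OE replicate 2 left out. CDH24 was between 8.06 and 9.4 TPM, and CDH4, CDH23, CDH8, CDH13 and CDH11 were listed between 0.6 and 4.23 TPM. None of the 9 had an unadjusted p under 0.05, and the largest difference was that of CDH8, at 0.40 (95% confidence interval -0.16 to 0.95), which became 0.16 with control replicate 2 left out and 0.63 with control replicate 1 left out.

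**Figure D3:**
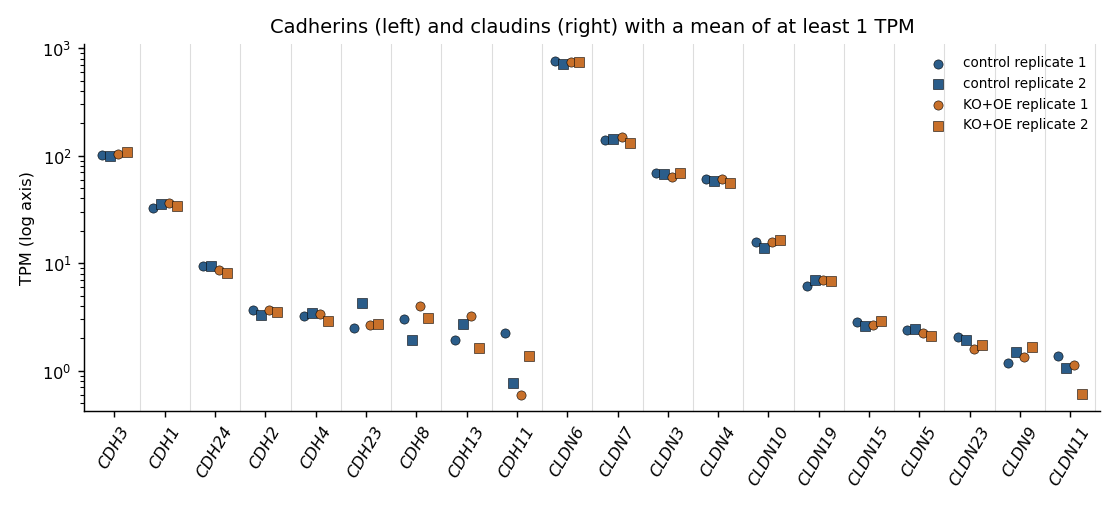
TPM on a log axis of the cadherins (left) and claudins (right) with a mean of at least 1 TPM, ordered by mean within each family, with 1 point per library; blue marks control, orange KO+OE, circles replicate 1 and squares replicate 2. CDH3 lies above CDH1 and CLDN6 above every other claudin in all 4 libraries, and the points spread most for genes near 1 TPM such as CDH11.

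The wider junction lists hold the genes for the proteins that cadherins and claudins bind. In the adherens junction list, 10 of 12 genes were tested, with the nectin gene NECTIN2 (189.79 to 198.57 TPM) and the α-catenin gene CTNNA1 (106.82 to 111.64 TPM) highest. β-catenin (CTNNB1) was listed at 17.52 to 19.2 TPM. In the tight junction list, 12 of 13 genes were tested, and F11R, which encodes the junctional adhesion molecule JAM-A, led with 74.4 to 82.62 TPM. Of 10 desmosome genes 6 were tested, led by the plakophilin genes PKP3 (12.07 to 14.46 TPM) and PKP4 (9.94 to 12.06 TPM). In these lists 0 genes had an unadjusted p under 0.05. The medians of the log2 fold changes were -0.015, -0.013 and -0.017. In the tight junction list OCLN, which encodes occludin, differed most, at 0.19 (0.13 with control replicate 2 left out). The largest difference of the desmosome list was that of PKP2, which was 5.32 and 4.36 TPM in control and 3.74 and 3.75 TPM in KO+OE (log2 fold change -0.29, limma adjusted p = 0.931), and it ranged from -0.41 to -0.18 with control replicate 2 or 1 left out.

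Apical-basal polarity genes set the apical side, where podocalyxin sits, apart from the lateral side with its junctions. Of 15 such genes 13 were tested, and their median log2 fold change was -0.095, with 6 higher and 7 lower in KO+OE. The unadjusted p was under 0.05 for 2 of the 13 (5.33% of all genes tested), and 0 passed an adjusted p of 0.05. SCRIB, a scaffold of the lateral membrane, had 60.01 and 59.73 TPM in control cells against 55.2 and 53.91 TPM in KO+OE cells. LLGL2, a partner of SCRIB in the same module, stood at 45.33 and 43.66 TPM in control and, in KO+OE, at 40.14 and 36.51 TPM. Both genes had lower values in each KO+OE library than in either control library, as had 4 of the 13 genes against 19.6% of all genes tested. The log2 fold changes were -0.13 for SCRIB (95% confidence interval -0.25 to -0.02) and -0.21 for LLGL2 (-0.38 to -0.04), each with an adjusted p = 0.928 from limma. Without the trend in the limma prior their unadjusted p-values went from 0.0323 and 0.0241 to 0.112 and 0.0655. The log2 fold change of LLGL2 was -0.14 with KO+OE replicate 2 left out. The largest difference of the list was that of DLG1, at 2.28 and 1.37 TPM in control and 0.97 and 0.83 TPM in KO+OE (log2 fold change -0.55, 95% confidence interval -1.14 to 0.03). Its log2 fold change ranged from -0.79 (control replicate 2 left out) to -0.32 (control replicate 1 left out). PRKCZ, an atypical protein kinase C of the apical side, was next to SCRIB in level at 50.42 to 54.13 TPM.

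Partners of the surface proteins gave 0 genes with an unadjusted p under 0.05. Ezrin (EZR) and moesin (MSN), which link podocalyxin to actin, were listed at 135.19 to 138.31 TPM and at 129.79 to 132.93 TPM. The 5 genes of this list centred on a log2 fold change of 0.009, and RDX, which encodes radixin, differed most, at 0.20. Of 12 partners and proteases of EPCAM 10 were tested, with a median of -0.007, and the protease gene BACE1 differed most, at -0.21. SPINT2 and SPINT1, inhibitors of the protease that cleaves EPCAM, were highest at 248.9 to 289.6 TPM and 194.51 to 204.84 TPM. The 12 surface antigens of pluripotent cells, with PODXL, CD24, THY1 and EPCAM among them, were split evenly, 6 higher and 6 lower, around a median of 0.0, and PROM1 differed most, at -0.07. Keratins of simple epithelia were abundant, with KRT18 at 982.2 to 996.13 TPM and KRT8 at 752.77 to 760.05 TPM. KRT7 differed most, at 0.12 (95% confidence interval -0.10 to 0.34), and lay at 0.036 with KO+OE replicate 2 left out and 0.2 with KO+OE replicate 1 left out. KRT8 was also the list gene closest to CLDN6 in level.

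**Figure D4:**
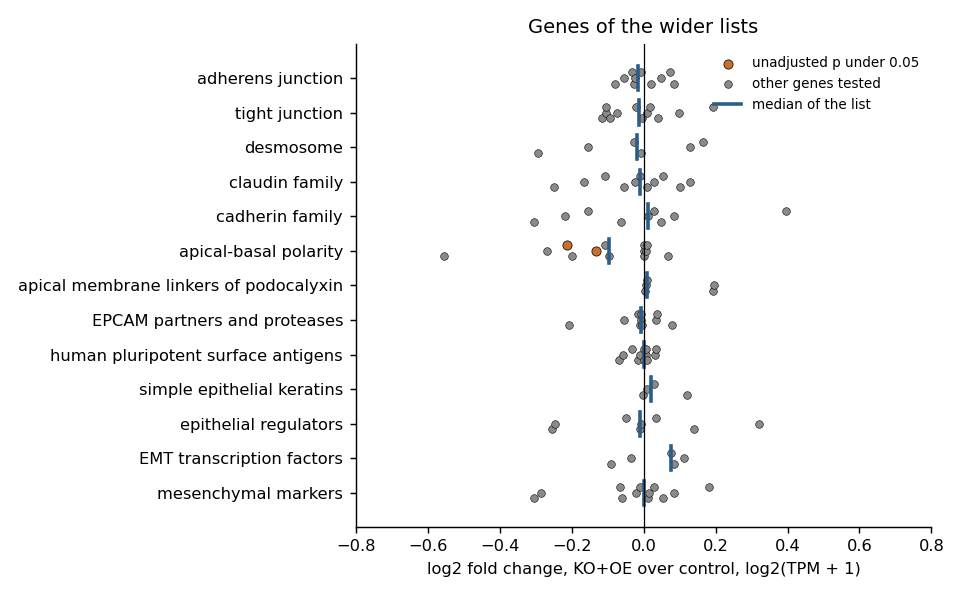
Log2 fold change of KO+OE over control on the log2(TPM + 1) scale for each gene tested in 13 lists, with the median of each list as a blue bar; orange points have an unadjusted p under 0.05 in limma. The orange points are SCRIB and LLGL2, both below 0 in the polarity list, and the genes farthest from 0 are DLG1 at -0.55 and CDH8 at 0.40.

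The regulators of the epithelial state were compared last. Among the epithelial regulators 8 of 12 were tested, led by RAB25, a GTPase of apical recycling, at 97.19 to 102.71 TPM and the protease gene ST14 at 25.38 to 27.27 TPM. GRHL2, a transcription factor that maintains epithelial genes, was near the filter at 1.09 and 1.43 TPM in control and 1.38 and 2.33 TPM in KO+OE. The difference of 0.32 on the log2 scale became 0.079 with KO+OE replicate 2 left out and 0.56 with KO+OE replicate 1 left out. Of the transcription factors that drive the loss of CDH1, ZEB1 was listed at 0 in every library, ZEB2 at no more than 0.07 TPM and SNAI2 at no more than 0.54 TPM. SNAI1 was listed at 9.38 to 9.79 TPM, SNAI3 at 9.46 to 10.52 TPM, TWIST2 at 2.51 to 3.52 TPM and TWIST1 at 0.8 to 1.6 TPM. TCF3, whose E12 and E47 products bind the same DNA motif but act in many cell types, was listed at 172.88 to 195.02 TPM. Over the 5 tested factors of this list the median log2 fold change came to 0.076, TWIST2 differed most at 0.11, and 0 had an unadjusted p under 0.05. A listed 0 is not read as absence, since EXOSC6, a gene of the RNA exosome that every cell uses, was listed at 0 in both KO+OE libraries. In control EXOSC6 was at 0.22 and 0.37 TPM.

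Of 16 mesenchymal markers 12 were tested, with a median log2 fold change of 0.001, and 0 had an unadjusted p under 0.05. TAGLN was the highest of them at 786.19 to 867.39 TPM, above VIM, and CDH11 differed most between the groups, at -0.30. Of the matrix genes that fibroblasts express, SPARC was at 217.85 to 231.25 TPM, COL1A1 at 53.86 to 55.6 TPM, FN1 at 25.46 to 29.66 TPM and COL1A2 at 12.99 to 14.47 TPM, whereas COL3A1, LUM, DCN and POSTN were at no more than 0.08 TPM in any library. The receptor gene PDGFRB was at 11.59 to 14.96 TPM. The summed TPM of the 16 markers was 1743 and 1789 in control and 1825 and 1791 in KO+OE. VIM was thus accompanied by some genes of the mesenchymal list and not by others.

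Over the genes of the lists, level also varied with the base composition of the transcript. Over 174 genes of the lists with a known canonical transcript, the Spearman correlation between TPM and GC content was 0.465 to 0.478 in the 4 libraries, and that between TPM and length was -0.098 to -0.084. These genes share their libraries and are not independent. The median level was 0.307 TPM for 58 genes with a GC content under 45%, 8.85 TPM for 52 genes from 45% to 55%, and 18.7 TPM for 64 genes above. A mean of 1 TPM was reached by 25, 38 and 53 of these genes. The medians and the correlation thus also reflect how many listed genes were below that level. The relation was not computed over all genes of the series. CDH2 (43.1%) and TJP1 (45%) were at the low end and EPCAM (44.3%) beside them, whereas CLDN6 (57.6%), THY1 (56.1%), CLDN7 (56.0%) and VIM (54.3%) were at the high end. Within the cadherins GC content and level did not run together. The level was higher from CDH2 (43.1%) to CDH1 (48.2%) and CDH3 (53.2%), but CDH24 (64.1%), CDH4 (59.7%) and CDH23 (59.2%), with means of 8.84, 3.23 and 3.02 TPM, lay below CDH1 and CDH3. How far base composition contributed to the order of levels was not tested. The correlation was alike in control and KO+OE.

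**Figure D5:**
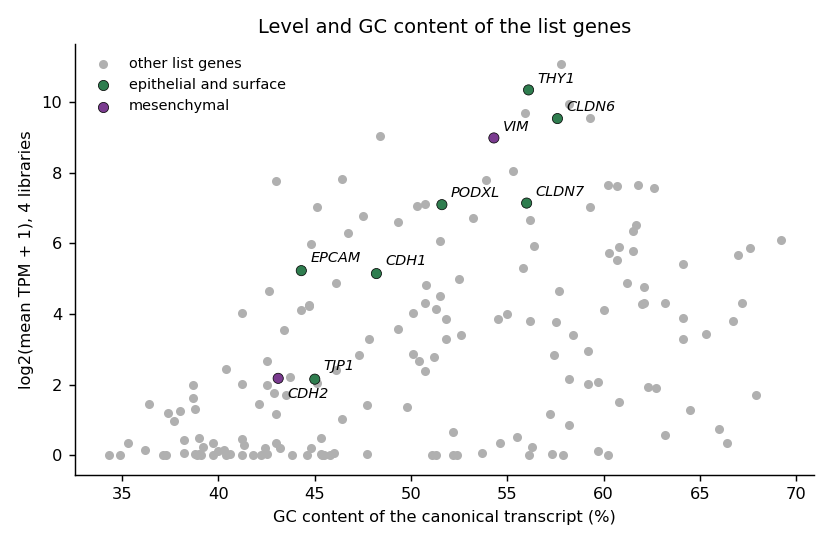
GC content of the canonical transcript (%) against log2(mean TPM + 1) over the 4 libraries for 174 genes of the lists, with the genes described here in green (epithelial and surface) and purple (CDH2 and VIM); CD24 had no canonical transcript in the annotation and is not drawn. CDH2 and TJP1 lie low at 43.1% and 45% GC, and THY1, CLDN6 and VIM lie high at 54.3% to 57.6%, while EPCAM at 44.3% lies above both of the former.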

How the data were processed

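Polyadenylated RNA of 4 H9 libraries was analysed, and groups and replicate numbers came from the sample titles. The study's methods refer to the routine workflow of the sequencing company. The submitters' processing notes name HISAT2, featureCounts of Subread, DESeq2 and the hg38 build, with no versions. The authors deposited 1 table of 60671 genes, whose header names no unit. The deposited values are read as TPM, because the columns hold decimals and share nearly 1 total (986853 to 987078). The release of the annotation and the gene lengths behind them are not given in the sources used here. No column was left unmapped (0).

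The test covered 12319 genes whose mean reached 1 TPM. Values on the scale log2(TPM + 1), which understates changes of low genes, were compared with limma 3.58.1 in R 4.3.3 (two-sided, group as the only term, empirical Bayes with a trend on mean level), and Benjamini-Hochberg adjustment ran over these genes. An exact permutation test of 2 against 2 libraries cannot go below p = 0.333 and was not used. The step was checked on simulated data with known changes. In each of 5 runs, 200 genes were raised in KO+OE by a log2 change of 1 or 2. The residuals were drawn from genes of like level. Of genes given a log2 change of 1 in TPM, 94.1% passed at a mean of at least 10 TPM and 15.8% below that mean. The adjustment is stricter where fewer genes change, and 1 of the 12319 genes passed in the data. These shares are therefore not the power to find a lone change here. A change of that size in low genes such as TJP1 and CDH2 would thus often not pass. The genes described and the 15 further lists were chosen with earlier results of these data known, so no p is given for a list, and lists are described by counts and medians. All 10 genes are named; of each list the genes with an unadjusted p under 0.05, the 2 highest in level and the largest difference, of the cadherins and claudins all with a mean of at least 1 TPM, and the list gene closest to a member in level. A gene that this rule names is not reported here. CTNNB1, ZEB1, ZEB2, SNAI1, SNAI2, TWIST1, SPARC, COL1A1, COL1A2, FN1, PDGFRB, COL3A1, LUM, DCN, POSTN and EXOSC6 were chosen for naming once values were known. Positions and promoters are from RefSeq on GRCh38.p14, and GC content and length from canonical transcripts of GENCODE release 44. The replicate numbers were not taken as pairs. The alternatives changed the pseudocount (0.1 or 5), the filter (none or 5 TPM) or the scaling (median ratios or quantiles), removed the trend from the prior, added a replicate block, or left out each library. Python 3.11.15, pandas 2.3.3, scipy 1.17.1 and matplotlib 3.10.9 were used.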

Additional observations from a re-analysis of the deposited data

How the results depend on the processing

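Under all 12 alternatives 0 of the genes described passed an adjusted p of 0.05 and 0 had an unadjusted p under 0.05 in limma; the lowest adjusted p was 0.891. The filter at 5 TPM left out TJP1 and CDH2. The log2 fold changes of EPCAM and CLDN7 turned to 0.0022 and 0.0042 with median-ratio rescaling and to 0.0029 and 0.012 with quantile normalization. Libraries of the same number deviated from their group means with a correlation of -0.049, so the numbers were not taken as pairs. With the replicate block the count of genes described that passed stayed 0 and the median log2 fold change was 0.009. The list genes with an unadjusted p under 0.05, 2 of 117 tested beside 5.33% of all genes, became 3 with no filter, with median-ratio rescaling and without control replicate 1, and 1 without the trend in the prior, where DLG1 passed with 0.0462 and SCRIB and LLGL2 did not.

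With 1 library left out, the lone library was assumed to vary like the others. Groups with a single library are more easily apart, and the count of the 10 genes whose groups did not overlap went from 0 to between 4 and 7, where the share over all genes tested was 66.1% to 67.2%. Their median log2 fold change lay between -0.015 (control replicate 2 left out) and 0.046 (KO+OE replicate 2 left out), and the epithelial minus mesenchymal level, -0.024 in KO+OE over control, from -0.084 to 0.036 (without KO+OE replicates 1 and 2). Single genes ran as follows without control replicates 1 and 2: CDH1 from -0.0092 to 0.11, THY1 from -0.037 to 0.1 and VIM from -0.008 to 0.039. With the replicates in the other order, CLDN6 ran from -0.037 to 0.059, EPCAM from -0.078 to 0.058, CD24 from -0.041 to 0.055, CDH2 from -0.038 to 0.098, NUDT21 from -0.012 to 0.066, RDX from -0.0098 to 0.4 and CDH11 from -0.74 to 0.13. PROM1 ran from -0.19 to 0.049 (without control replicates 1 and 2). Without KO+OE replicates 1 and 2, CLDN7 ran from -0.1 to 0.083, TJP1 from -0.37 to 0.19, PODXL from -0.074 to 0.086 and TWIST2 from -0.069 to 0.3.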
